A study of Mus musculus with 6 samples.

Results

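Rbp7 and 9 genes of capillary lipid handling were followed in mouse aorta, 10 genes of the 55335 in the deposited count table. The members were Rbp7, Fabp4, Fabp5, Cd36, Gpihbp1, Lpl, Meox2, Tcf15, Aqp1 and Aqp7. Rbp7 was chosen on its measured values, because its higher level in aged than in young aorta was among the clearest differences, and the other members were taken for their known function in capillary endothelium. The values of Rbp7 in this contrast are therefore a description and carry no test. The other 9 members are given with the test fitted over all genes. Each symbol matched 1 gene in the table, and all 10 members passed the filter on low counts.

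The comparison of ages asks which of these genes differ between young and aged mouse aorta, in a study that set animal arteries of several species beside human ones. RNA-seq was run on aorta from young mice of 6 weeks and aged mice of 6 months, with 3 libraries in each group and 1 mouse behind each library by the methods. All mice were c57b6l by the labels, genotype WT and untreated, and the methods name male mice only. Per the methods, periaortic fat was dissected with the help of a microscope. RNA came from the whole vessel, so fewer cells of a type and less RNA per cell cannot be told apart.

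Total counts per library ran from 31049632 to 45832185. Mitochondrial genes took 14.9% to 21.2% of counts in the young libraries and 23.1% to 30.4% in the aged. Several libraries stood apart. Young replicate 1 held 14806 counts of Xist, the RNA of the inactive X chromosome, and 53 of the Y-linked Ddx3y, against 7 to 24 and 1488 to 2117 in the other 5 libraries, which goes against the sex named in the methods. Young replicate 2 and aged replicate 2 held the most RNA of adipocyte genes, with 87.1 and 94.3 CPM (counts scaled to the library total) of the adipocyte hormone gene Adipoq against 13.5 to 38.7 elsewhere. Aged replicate 3 held 870 CPM of the endothelial adhesion gene Pecam1 against 167 to 225 in the other libraries. Values of the members without 1 of these libraries are given beside the results that they moved most.

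Capillary endothelium passes fatty acids from the blood to the tissue behind it. In this route GPIHBP1 on the capillary wall holds lipoprotein lipase (LPL) at the vessel lumen, LPL frees fatty acids from triglyceride-rich particles, CD36 takes them up at the membrane, and FABP4 and FABP5 bind them inside the cell. MEOX2 and TCF15 are transcription factors known to drive this programme in heart capillaries, and RBP7 is a small retinol-binding protein of the same fold as the FABP proteins, enriched in microvascular endothelium and in adipose tissue. Many of these genes are not specific to capillaries: Fabp4, Cd36, Lpl and Aqp7 are also strongly expressed by adipocytes.

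The genes lie apart on the GRCm38 build, except for the FABP pair. Rbp7 occupies chr4:149449687-149454978 on the minus strand with 4 exons, and Aqp7 lies on the same chromosome at chr4:41033074-41048139, also on the minus strand. Fabp4, at chr3:10204088-10208576 on the minus strand, and Fabp5, at chr3:10012548-10016607 on the plus strand, are near neighbours. Cd36 is at chr5:17781690-17888801 on the minus strand, Gpihbp1 at chr15:75596628-75599481 on the plus strand and Lpl at chr8:68880491-68907448 on the plus strand. Meox2 is at chr12:37108540-37179534, Tcf15 at chr2:152143561-152149097 and Aqp1 at chr6:55336432-55348555, all 3 on the plus strand. Fabp5 has near-identical copies elsewhere in the annotation: Gm6166 shares 98.3% of 409 aligned bases, and its 126 counts over all libraries show that some reads may have been split between the copies. Gm48617, an intronic transcript within Meox2, drew 3 counts in all.

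Promoter windows from RefSeq (GRCm38.p6) matched 5 members. The 250 bases before the start site are printed for the members whose aged mean differed most from the young mean, Rbp7 and Meox2, and for Cd36, the fatty acid receptor, as a contrast. Capitals mark matches on either strand to the nuclear receptor half-site (AGGTCA), the E-box (CANNTG), the TATA box (TATAAA), the GC box (GGGCGG) and the CCAAT box, none of which overlap in these windows.
Rbp7, chr4:149454969-149455218, minus strand: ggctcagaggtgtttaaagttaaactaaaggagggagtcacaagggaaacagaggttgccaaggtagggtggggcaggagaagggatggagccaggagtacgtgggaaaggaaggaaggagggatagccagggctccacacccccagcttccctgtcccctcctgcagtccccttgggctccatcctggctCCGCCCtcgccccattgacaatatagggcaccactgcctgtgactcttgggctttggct
Meox2, chr12:37108290-37108539, plus strand: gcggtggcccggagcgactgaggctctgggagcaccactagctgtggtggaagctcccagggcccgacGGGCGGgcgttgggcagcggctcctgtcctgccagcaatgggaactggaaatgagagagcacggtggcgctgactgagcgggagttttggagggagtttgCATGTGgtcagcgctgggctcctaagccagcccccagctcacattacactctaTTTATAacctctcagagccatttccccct
Cd36, chr5:17835897-17836146, minus strand: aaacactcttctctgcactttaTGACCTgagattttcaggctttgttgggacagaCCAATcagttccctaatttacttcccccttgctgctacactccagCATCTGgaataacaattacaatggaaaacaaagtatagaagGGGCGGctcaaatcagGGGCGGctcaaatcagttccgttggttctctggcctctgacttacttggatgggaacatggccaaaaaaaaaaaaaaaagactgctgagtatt

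The Rbp7 window held 1 match, a GC box read on the opposite strand (CCGCCC) whose first base lay 59 bases before the start, and 58.4% of its bases were G or C. The Meox2 window held a GC box, an E-box (CATGTG) and, 29 bases before the start, TATAAA read on the opposite strand. The Cd36 window, at a start site that lies inside the annotated gene, held the half-site on the opposite strand (TGACCT) 228 bases before the start, 1 E-box, 1 CCAAT and 2 GC boxes, with 43.2% G or C. Of 32851 RefSeq promoter windows of the same length, 14.0% held AGGTCA, 66.2% CANNTG, 12.4% TATAAA, 32.7% GGGCGG and 33.8% CCAAT on either strand.

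No gene of the 16612 tested passed an adjusted p of 0.05 by edgeR's quasi-likelihood fit, with p-values adjusted after Benjamini and Hochberg (0%), and 1723 had an unadjusted p under 0.05. Of all genes tested, 5.56% were higher in aged aorta at that unadjusted p and 4.82% lower, while 7.74% had every aged library above every young one and 8.78% the reverse. Of the 10 members, 3 were higher at an unadjusted p under 0.05 (Rbp7, Gpihbp1 and Meox2), 0 were lower, and 1, Rbp7, had groups that did not overlap. The log2 fold change, aged over young, was above 0 for 8 of the 10, with a median of 0.51 against 0.02 over all genes tested. DESeq2 called 2.08% of the genes that it gave an adjusted p, and Rbp7 was its 1 call among the members. Without aged replicate 2, edgeR called 0.642% of genes, and again Rbp7 was the 1 member among them. The choice of Rbp7 for this contrast fixed its place in all of these counts.

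**Figure D1:**
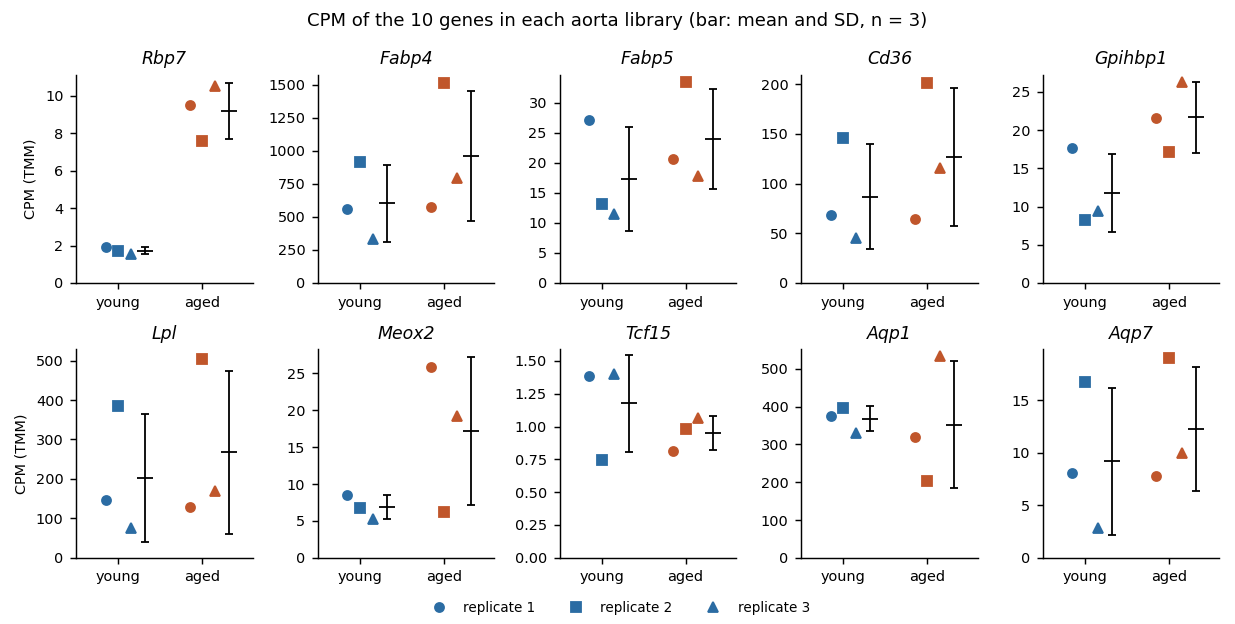
CPM of the 10 members in each of the 3 young and 3 aged libraries on linear axes. Points are libraries and bars give the mean and SD. Rbp7, at 1.57 to 1.94 CPM in young and 7.58 to 10.5 CPM in aged libraries, is the 1 member whose groups do not overlap.

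Rbp7, the retinol-binding member, stood at 1.94, 1.70 and 1.57 CPM in young replicates 1, 2 and 3, from 94, 59 and 54 counts. In aged replicates 1, 2 and 3 it stood at 9.51, 7.58 and 10.5 CPM, from 316, 286 and 297 counts. Every aged library lay above every young one, and within each group the libraries lay close together. The means were 1.74 ± 0.187 and 9.20 ± 1.49 CPM (SD, n = 3 each), a fitted 5.28-fold difference and a log2 fold change of 2.40 (SE 0.25). Leaving out single libraries kept that value between 2.30 and 2.52, and it was 2.50 without young replicate 1, the library with Xist.

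Rbp7 is set here beside the libraries rich in adipocyte or endothelial RNA. Young replicate 2 and aged replicate 2, which had the most Adipoq, held 1.70 and 7.58 CPM of Rbp7, the latter being the lowest aged value. Aged replicate 3, with the most Pecam1, held the highest Rbp7 value, 10.5 CPM. Aged replicate 1 held 9.51 CPM of Rbp7 and 178 CPM of Pecam1. Set against Cdh5, the cadherin of endothelial junctions, there were 0.0414, 0.0506 and 0.0491 Rbp7 counts for each Cdh5 count in the young libraries and 0.290, 0.193 and 0.0992 in the aged. Against Plvap, a protein of fenestrated and other microvessel endothelium, the ratios were 0.105, 0.106 and 0.0980 in young and 0.267, 0.340 and 0.221 in aged libraries. With either denominator each aged ratio exceeded each young one. Rbp7 was chosen for its rise, so this separation is a description and carries no test. The part of endothelial RNA in the Rbp7 values was not tested.

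Levels were compared between genes as the deposited FPKM, for which the gene lengths used are not stated. Fabp4 and Aqp1 were the most abundant members, with medians over the 6 libraries of 131.1 FPKM (74.5 to 289.7) and 130.8 FPKM (66.5 to 163.9). Cd36 followed with a median of 22.2 FPKM (12.5 to 48.1) and Lpl with 13.2 FPKM (7.23 to 41.2). In these units the ranges of Fabp4 and Aqp1 overlapped, neither overlapped with Cd36, and Cd36 exceeded Lpl in every library although their ranges overlapped. The lengths used did not follow the longest coding transcripts, of 896 bases for Fabp4, 2627 for Aqp1, 3399 for Cd36 and 4115 for Lpl. In young replicate 1 Fabp4 was at 559 CPM and 118.5 FPKM and Aqp1 at 376 CPM and 135.9 FPKM. There Lpl was at 145.5 CPM and 13.2 FPKM and Cd36 at 68.8 CPM and 18.3 FPKM. The order between members therefore holds for the deposited FPKM only. Gpihbp1 (median 6.15 FPKM), Rbp7 (5.81), Fabp5 (4.49), Meox2 (3.12) and Aqp7 (2.77) formed a run of neighbours with overlapping ranges. Tcf15 was the lowest, with a median of 0.857 FPKM (0.705 to 1.42). Rbp7 moved up this order: it ranked 9, 9 and 8 of 10 in the young libraries and 4, 5 and 5 in the aged.

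Gpihbp1, the capillary anchor of LPL, was measured at 17.7, 8.31 and 9.44 CPM in young replicates 1, 2 and 3. In aged replicates 1, 2 and 3 it was at 21.6, 17.1 and 26.3 CPM. Young replicate 1 overlapped the aged group and the other 2 young libraries lay below it. The means were 11.8 ± 5.11 and 21.7 ± 4.60 CPM (SD, n = 3 each), with a log2 fold change of 0.87 (SE 0.33, 95% interval 0.11 to 1.64) that did not pass adjustment (edgeR adjusted p = 0.443). Without young replicate 1 the log2 fold change was 1.30, and its adjusted p in edgeR was 0.364. With the macrophage score as a covariate the age term of Gpihbp1 was near 0, at -0.044 (SE 0.54, 95% interval -1.35 to 1.27). That score was chosen after seeing the data and separated the ages by itself, so the fit cannot part it from age.

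Set against endothelial genes, Gpihbp1 did not separate the ages. For each Cdh5 count there were 0.377, 0.248 and 0.294 counts of Gpihbp1 in the young libraries and 0.660, 0.435 and 0.248 in the aged. For each Plvap count there were 0.955, 0.520 and 0.588 in young and 0.607, 0.766 and 0.554 in aged libraries.

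Lpl, the lipase itself, was at 145.5, 384 and 75.9 CPM in young replicates 1, 2 and 3 and at 128, 505 and 170.4 CPM in aged replicates 1, 2 and 3. Its highest value in each age group was in replicate 2, the library with the most Adipoq in that group, and the groups overlapped widely. Aged over young, the log2 fold change was 0.41 (SE 0.70, 95% interval -1.23 to 2.04, edgeR adjusted p = 0.851) and became -0.44 without aged replicate 2 and 1.29 without young replicate 2. The count of Lpl for each count of Gpihbp1 was 8.24, 46.3 and 8.04 in young and 5.91, 29.6 and 6.48 in aged libraries. Lipase and anchor thus parted in replicate 2 of each age, while the ratio stayed between 5.91 and 8.24 in the other libraries.

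Cd36, the fatty acid receptor, was at 68.8, 146 and 45.0 CPM in the young libraries and at 64.0, 201 and 116 CPM in the aged. Fabp4, the fatty acid carrier of adipocytes and microvessels, was at 559, 916 and 334 CPM in young and at 577, 1518 and 799 CPM in aged libraries. Both genes peaked in replicate 2 of each group, and their groups overlapped. The log2 fold change was 0.55 for Cd36 (SE 0.53, 95% interval -0.68 to 1.79, edgeR adjusted p = 0.725). That of Fabp4 was 0.68 (SE 0.46, 95% interval -0.40 to 1.76, edgeR adjusted p = 0.630). Without aged replicate 2 they were 0.06 and 0.19, and without young replicate 2 they were 1.17 and 1.12.

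Fabp5, the second carrier, was at 27.2, 13.2 and 11.5 CPM in the young libraries and at 20.6, 33.5 and 17.9 CPM in the aged. Young replicate 1 lay above 2 of the aged libraries. Fabp5 had a log2 fold change of 0.47 (SE 0.39, 95% interval -0.43 to 1.38, edgeR adjusted p = 0.681), with 0.97 without young replicate 1 (edgeR adjusted p = 0.397) and 0.15 without aged replicate 2 (edgeR adjusted p = 0.889). Counts of Fabp4 outnumbered those of Fabp5 by 20.5, 69.6 and 29.0 to 1 in young and by 27.9, 45.3 and 44.6 to 1 in aged libraries, with no separation of the ages.

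Aqp1, the water channel of capillary endothelium and red blood cells, was at 376, 397 and 331 CPM in the young libraries and at 319.5, 204.5 and 534 CPM in the aged. The aged group held both the lowest and the highest library. Aqp1 had a log2 fold change of -0.06 (SE 0.33, 95% interval -0.84 to 0.71, edgeR adjusted p = 0.960), which became -0.49 without aged replicate 3 and 0.22 without aged replicate 2. Aged replicate 3, the highest, also had the most Pecam1 and the largest sum over 9 erythroid genes (907 CPM, against 411 to 701 elsewhere), and aged replicate 2, the lowest, had the smallest erythroid sum of 411 CPM. Within the young group this did not hold, since young replicate 3 had the largest erythroid sum, 701 CPM, and the lowest Aqp1. With a score of the endothelial genes in the fit, the Aqp1 log2 fold change was -0.49 (95% interval -1.04 to 0.06, edgeR adjusted p = 0.701).

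Aqp7, the glycerol channel of adipocytes and of some capillaries, was at 8.09, 16.7 and 2.83 CPM in the young libraries and at 7.79, 19.0 and 10.02 CPM in the aged. As with Lpl and Cd36, the highest library of each age was replicate 2. Its log2 fold change was 0.42 (SE 0.62, 95% interval -1.04 to 1.87, edgeR adjusted p = 0.828), and it became -0.048 without aged replicate 2 and 1.18 without young replicate 2.

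Among the transcription factors, Meox2 was at 8.57, 6.78 and 5.30 CPM in young replicates 1, 2 and 3. In aged replicates 1, 2 and 3 it was at 25.9, 6.25 and 19.3 CPM. Aged replicates 1 and 3 were far above the young range, whereas aged replicate 2 lay within it. The means were 6.88 ± 1.63 and 17.2 ± 10.01 CPM (SD, n = 3 each), with a log2 fold change of 1.32 (SE 0.49, 95% interval 0.17 to 2.47) that did not pass adjustment (edgeR adjusted p = 0.443). Without aged replicate 2 it was 1.72, with an adjusted p in edgeR of 0.0551.

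Fibroblast and macrophage genes both moved with Meox2 across the aged libraries. Pdgfra, a receptor of fibroblasts and other mesenchymal cells, was at 44.0, 48.2 and 52.7 CPM in young and at 169.8, 54.5 and 133.7 CPM in aged libraries, again with aged replicate 2 near the young level. The count of Meox2 for each count of Pdgfra was 0.195, 0.141 and 0.101 in young and 0.153, 0.115 and 0.144 in aged libraries, and the groups overlapped. With a score of 8 fibroblast genes as a covariate, an alternative chosen after seeing the data, the age term of Meox2 was 0.17 (SE 0.32, 95% interval -0.61 to 0.94, edgeR adjusted p = 0.902), while that of Rbp7 was 2.21. The macrophage score was likewise high in aged replicates 1 and 3 (1.16 and 0.81) and near 0 in aged replicate 2 (0.02), and with it as a covariate, also chosen after seeing the data, the age term of Meox2 reversed to -1.20 (95% interval -2.31 to -0.09, edgeR adjusted p = 0.563).

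Tcf15, the partner of Meox2 in heart capillaries, was scarce. It was at 1.38, 0.747 and 1.40 CPM in young libraries, from 67, 26 and 48 counts, and at 0.812, 0.981 and 1.06 CPM in aged libraries, from 27, 37 and 30 counts. The aged values lay inside the young range. The log2 fold change of -0.31 (SE 0.45, 95% interval -1.36 to 0.74, edgeR adjusted p = 0.824) was smaller than the spread between libraries.

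Adipocyte RNA moved with several members, so the fit was repeated with a score of 15 white adipocyte genes as a covariate. Per unit of that score, the slope of the log2 level was 0.90 for Lpl, 0.76 for Aqp7, 0.66 for Cd36 and 0.59 for Fabp4, against -0.08 for Rbp7 and -0.12 for Gpihbp1. With the score in the fit the age term was 0.77 for Fabp4 (SE 0.19, 95% interval 0.33 to 1.22, edgeR adjusted p = 0.327). It was 0.68 for Cd36 (SE 0.25, 95% interval 0.10 to 1.27, edgeR adjusted p = 0.410). The standard errors of both were under those without the score, and neither gene passed adjustment. Lpl, with 0.58 (95% interval -0.03 to 1.19), and Aqp7, with 0.73 (95% interval -0.15 to 1.61), kept intervals that included 0. In that fit 4 members were higher at an unadjusted p under 0.05 (Rbp7, Fabp4, Cd36 and Gpihbp1), where 5.65% of all genes were. The Rbp7 age term was 2.38, and the choice of Rbp7 for its rise fixed its place in that count.

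**Figure D2:**
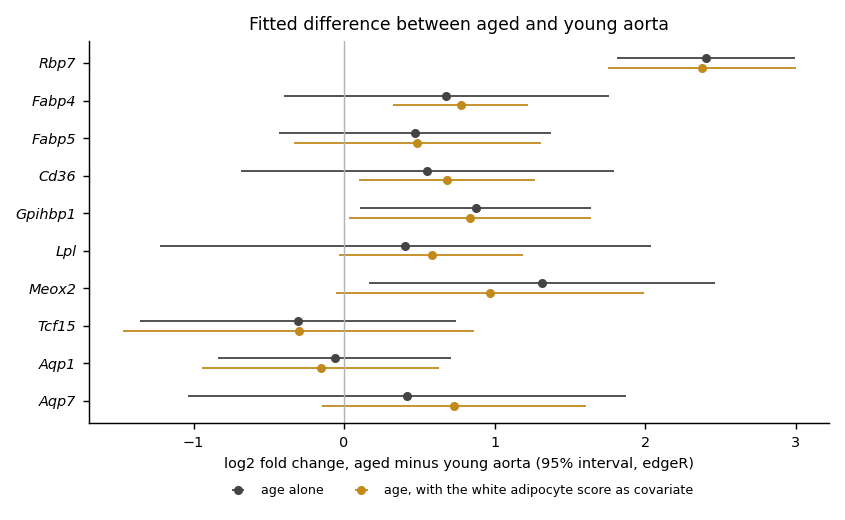
Log2 fold change, aged over young, of each member with its 95% interval from edgeR, for age alone and with the white adipocyte score as a covariate. The interval of Fabp4 narrows from -0.40 to 1.76 down to 0.33 to 1.22 and that of Rbp7 hardly moves. Rbp7 was chosen on this contrast, so its interval is a description and no test.

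Ratios to Adipoq were also taken. The Lpl ratio did not overlap between the ages, while those of Fabp4, Cd36 and Aqp7 overlapped through aged replicate 2 alone. Of all genes tested, 7.74% had every aged library above every young one by CPM, and a difference between these ratios was not tested. For each Adipoq count there were 14.4, 10.5 and 18.8 counts of Fabp4 in the young libraries and 42.7, 16.1 and 33.9 in the aged, with aged replicate 2 inside the young range. The Lpl ratio was 3.76, 4.42 and 4.27 in young and 9.45, 5.36 and 7.24 in aged libraries, each aged value above each young one. The Cd36 ratio was 1.78, 1.68 and 2.53 in young and 4.74, 2.14 and 4.93 in aged libraries, and the Aqp7 ratio was 0.209, 0.192 and 0.159 against 0.577, 0.202 and 0.426. In all 4 ratios aged replicates 1 and 3, which held less Adipoq than aged replicate 2, were the highest.

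**Figure D3:**
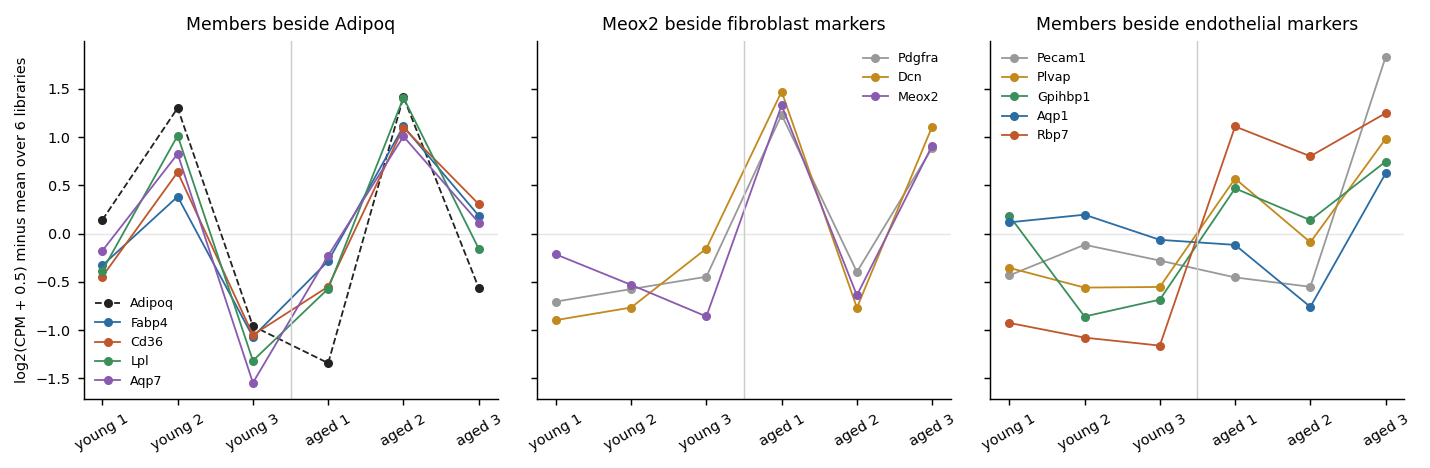
Log2(CPM + 0.5) of members and marker genes in the 6 libraries, each gene centred on its own mean, in 3 panels by marker type (lines only guide the eye). Fabp4, Cd36, Lpl and Aqp7 peak with Adipoq in replicate 2 of each age, and Rbp7 is higher in each aged library than in each young one. Meox2 follows Pdgfra and Dcn across the aged libraries, while across young replicates 1 to 3 Meox2 falls and Pdgfra rises.

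Capillary endothelial markers were measured beside the members. Of 16 such genes, 6 were higher at an unadjusted edgeR p under 0.05 and 0 lower, with a log2 fold change above 0 in 12 and a median of 0.56, and none passed adjustment. Their summed level was 713 to 1053 CPM in young and 922 to 1074 CPM in aged libraries. Car4, a carbonic anhydrase of the capillary surface, was at 3.44 to 5.02 CPM in young and 4.54 to 11.6 CPM in aged libraries. Cd300lg, a mucin-like capillary receptor, was at 10.6 to 15.7 CPM in young and 17.8 to 33.6 CPM in aged libraries, and Btnl9 was at 4.49 to 9.19 and 11.04 to 15.5 CPM. Plvap, at 18.5, 16.0 and 16.1 CPM in young and 35.6, 22.3 and 47.5 CPM in aged libraries, had a log2 fold change of 1.06. The largest log2 fold changes in the list were those of Tmem100 (1.66), Cxcl12 (1.65) and Ly6c1 (1.55), beside 2.40 for Rbp7, which was chosen for its rise. In the other direction lay Id1 (-0.50), C1qtnf9 (-0.25), Slc28a2 (-0.08) and Sparcl1 (-0.06). With the endothelial score as a covariate the age terms of Rbp7 and Gpihbp1 were 2.29 and 0.69. That score was built from 20 general endothelial genes and none of these 16. It was high in aged replicate 3 alone (1.41, against -0.40 to -0.12 in the other libraries). The part of capillary RNA in the Rbp7 and Gpihbp1 values was not tested.

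Other cell types also differed between libraries. The summed level of 20 endothelial genes was 737 to 781 CPM in young libraries and 737, 631 and 2682 CPM in aged replicates 1, 2 and 3, with 4 of 20 higher at an unadjusted p. The 15 white adipocyte genes summed to 816 to 1859 CPM in young and 628 to 2795 CPM in aged libraries, with 0 of 15 past that p, and Plin1, the coat protein of adipocyte lipid droplets, peaked at 128.9 CPM in aged replicate 2. The brown adipocyte gene Ucp1 was at 153.0, 361 and 45.2 CPM in young and 48.6, 1422 and 67.4 CPM in aged libraries, where 9 of 10 brown adipocyte genes were tested and 0 passed that p. Macrophage genes were higher at that p in 10 of 12, none lower, and summed to 165 to 198 CPM in young and 267 to 375 CPM in aged libraries. Fibroblast genes were higher at that p in 5 of 8 and summed to 4441 to 5626 CPM in young and 3107 to 9955 CPM in aged libraries. How far macrophage or fibroblast RNA takes part in the Rbp7 values was not tested beyond the covariate fits. There the age term of Rbp7, a description without a test, was 1.89 with the macrophage score and 2.21 with the fibroblast score. The macrophage score separated the ages by itself.

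Some of the remaining marker lists were high in single libraries. Cardiac muscle genes summed to 460.1 CPM in young replicate 1 and to 91.3 to 113 CPM elsewhere, with 5 of 10 tested lower at the unadjusted p. Mesothelial genes summed to 79.3 CPM in young replicate 2 and 80.4 CPM in aged replicate 3, and to 1.72 to 15.8 CPM elsewhere. Smooth muscle genes, which define the vessel wall, summed to 32580 to 40504 CPM in young and 28321 to 33604 CPM in aged libraries, with 0 of 8 above a log2 fold change of 0 and 3 of 8 lower at that p. Skeletal muscle genes (10.03 to 25.6 CPM) and keratinocyte genes (1.25 to 2.26 CPM) were scarce. Beside these sums, Rbp7 was at 1.94 CPM in young replicate 1 and 1.70 CPM in young replicate 2, against 1.57 CPM in the remaining young library, and at its highest, 10.5 CPM, in aged replicate 3. The part of cardiac or mesothelial RNA in these values was not tested.

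Of the retinoid genes, 20 of 28 listed were tested, and 2 were higher at an unadjusted p under 0.05 with 0 lower. Adh1, an alcohol dehydrogenase that can oxidise retinol, was at 17.2 to 23.7 CPM in young and 24.3 to 61.4 CPM in aged libraries (log2 fold change 1.20, edgeR adjusted p = 0.381). Aldh1a1, which makes retinoic acid, was at 8.81 to 31.6 CPM in young and 27.5 to 112.4 CPM in aged libraries (log2 fold change 1.76, edgeR adjusted p = 0.415). Both were lowest among the aged in replicate 2. DESeq2 called both (adjusted p = 0.04 and 0.03), and edgeR called Adh1 without aged replicate 2 (adjusted p = 0.0356). With the macrophage score, which separated the ages by itself, the age term of Adh1 was -0.25 (edgeR adjusted p = 0.94). The list's median log2 fold change was 0.40 against 0.02 over all genes.

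Of 30 tested genes of fatty acid uptake and lipolysis, 14 had a log2 fold change above 0, 0 were higher and 1 was lower at an unadjusted p under 0.05, and the median was -0.04. The lower gene was Cav1, a caveolar coat protein, at 78.5, 66.5 and 75.8 CPM in young and 34.4, 45.3 and 59.5 CPM in aged libraries. Its log2 fold change was -0.67 (SE 0.22, edgeR adjusted p = 0.403). In 2 genes of the list, Cav1 and Slc27a4, every aged library lay below every young one, as in 8.78% of all genes. The reverse held in 1 gene of the list and in 7.74% of all genes. Acsl5, an acyl-CoA synthetase, was 256.3 CPM in aged replicate 2 and 35.1 to 61.3 CPM elsewhere, and Slc27a4, a fatty acid transporter, was at 37.4 to 39.8 CPM in young and 22.9 to 36.1 CPM in aged libraries (log2 fold change -0.37, edgeR adjusted p = 0.543).

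Of 21 regulators and targets of the PPAR receptors, fatty acid sensors that act on Fabp4, Cd36 and Lpl, 3 were higher at an unadjusted p under 0.05 and 0 lower, with a median log2 fold change of 0.37. Ucp2, a mitochondrial carrier also abundant in macrophages, was at 8.96, 13.8 and 8.92 CPM in young and 41.6, 22.1 and 49.5 CPM in aged libraries (log2 fold change 1.84, edgeR adjusted p = 0.317). Ucp2 was called by DESeq2 (adjusted p = 7.68e-05) and, without aged replicate 2, by edgeR (adjusted p = 0.0344). Cpt1a, which admits fatty acids to mitochondria, was at 69.6 to 78.4 CPM in young and 107.4 to 123.1 CPM in aged libraries (log2 fold change 0.59, edgeR adjusted p = 0.377). In both genes each aged library exceeded each young one, as in 7.74% of all genes.

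Relatives of the carriers and channels gave no call. Of 8 other FABP family genes 3 were tested, and only Fabp3, the heart and muscle form that brown fat also makes, was abundant, at 34.9, 81.4 and 19.8 CPM in young and 19.9, 85.6 and 21.6 CPM in aged libraries. Its log2 fold change was -0.10 (edgeR adjusted p = 0.970). Fabp3 thus peaked in the same libraries as Fabp4, Cd36 and Aqp7. Of 13 other aquaporin and glycerol genes 6 were tested and 0 passed an unadjusted p of 0.05. Gpd1, which makes glycerol 3-phosphate, reached 1872 CPM in aged replicate 2 and lay between 72.4 and 301 CPM elsewhere.

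The genes whose profiles lay nearest to that of Rbp7 over the 6 libraries were found by the root mean square difference of log2(CPM + 0.5), each gene centred on its mean. They were Ifi205 (0.127), Itgam (0.237), Ifi207 (0.258), Pgf (0.305) and Ccnd1 (0.308). Ifi205 and Ifi207 belong to the interferon-inducible p200 family, Itgam is an integrin of myeloid cells, Pgf is a growth factor of the VEGF family and Ccnd1 a cyclin. Being chosen for a pattern that separates the ages, they carry no test. Ifi205 was at 0.949, 0.632 and 0.612 CPM in young and 4.99, 3.39 and 4.49 CPM in aged libraries, with aged replicate 2 the lowest of the aged as for Rbp7. Pgf, at 2.60, 4.05 and 3.03 CPM in young and 10.7, 14.0 and 15.1 CPM in aged libraries, did not have that dip.

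**Figure D4:**
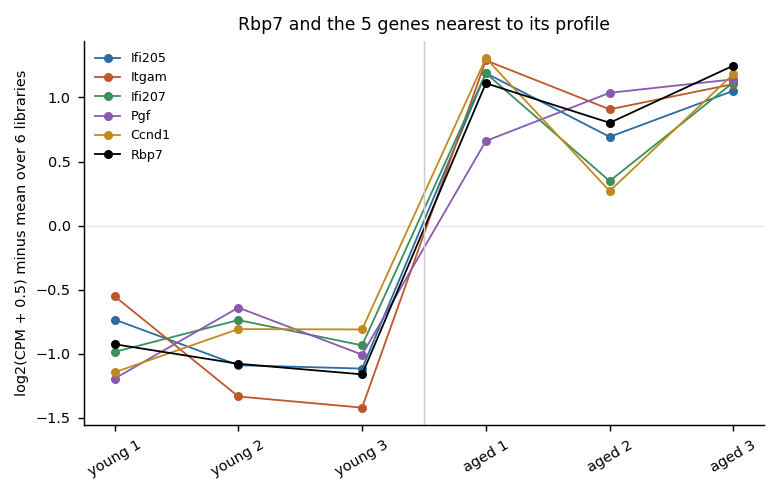
Centred log2(CPM + 0.5) of Rbp7 and of the 5 tested genes with the smallest root mean square difference from it, over the 6 libraries (lines only guide the eye). All 6 genes are lower in each young library than in each aged one, with distances from Rbp7 of 0.127 (Ifi205) to 0.308 (Ccnd1).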

How the data were processed

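Aorta RNA from 6 mice was sequenced single-ended at 1 library per mouse. The authors deposited whole-number read counts per gene and FPKM (reads scaled to gene length and library total), both without pooling. The build is mm10 in the submitters' processing notes, and the aligner, counter, annotation and strand setting are not given in the sources used here. Reads of overlapping antisense genes may thus be mixed in general. No member had an annotated antisense overlap, since the only gene overlapping a member was Gm48617, on the same strand as Meox2. Coordinates came from GENCODE M21, near-identical copies (95% identity over 200 bases) from BLAST 2.17.0 and promoters from RefSeq.

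Counts were filtered and fitted in R 4.3.3 with edgeR 4.0.16 (minimum count 10, total 15, TMM, quasi-likelihood test, Benjamini-Hochberg adjustment over 16612 genes, threshold 0.05). CPM used TMM library sizes. Scores were means of centred log2 CPM over a marker list. p-values measure the spread between mice, 3 per group. Totals of 31049632 to 45832185 counts a library put at least 26 counts (Tcf15, young replicate 2) behind each member's value, and the number of mice limits precision.

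The members and lists were chosen with earlier results of these data known. Named were the members, the 3 tested genes of smallest p in each pathway list and its most abundant gene where needed, the first genes of marker lists, the 5 genes nearest to Rbp7, and Xist and Ddx3y. Values of 2 genes that this rule names are not reported here. Plvap, Tmem100, Cxcl12, Ly6c1, the capillary genes that were lower, Igfbp4 and Mt2 were named after their values were seen. Alternatives were DESeq2 1.42.0, limma 3.58.1 on log2(FPKM + pseudocount), other filters and size factors, a replicate block, single libraries left out, and covariates, of which the fibroblast and macrophage scores were chosen after seeing the data. The fit was tested on simulated data first. Figures were drawn with matplotlib 3.10.9.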

Additional observations from a re-analysis of the deposited data

How the results depend on the processing

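No alternative turned the direction of Rbp7, whose log2 fold change ran from 1.81 (limma on log2 FPKM with a pseudocount of 1) to 2.52. Rbp7 was chosen for its rise in these same libraries, so its constant direction is a description and no test. limma on FPKM shifted the median of all genes to -0.12 (pseudocount 1) and -0.20 (0.1). Genes called past an adjusted p of 0.05 numbered 0 with edgeR, 311 with DESeq2 (222 higher), 1 with the adipocyte score (Igfbp4), 1 with the macrophage score (Mt2) and 0 to 110 when single libraries were left out, where the 110 came without aged replicate 2. Members called numbered 0, with 1 under DESeq2 (Rbp7) and 0 to 1 when single libraries were left out (Rbp7 without aged replicate 2). Genes at an unadjusted p under 0.05 numbered 1061 to 2722 over all settings.

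Leaving out single libraries moved the sign of Lpl (-0.44 to 1.29), Aqp1 (-0.49 to 0.22), Aqp7 (-0.048 to 1.18), Fabp1 (-3.05 to 0.75), Fabp3 (-1.13 to 0.64), Gpd1 (-1.40 to 2.27) and Gpd2 (-0.85 to 1.70), with the negative ends of Lpl, Aqp7, Gpd1 and Gpd2 set by leaving out aged replicate 2. With the endothelial score Fabp3 was 0.20. With the fibroblast score Fabp1 was 0.28 and Fabp3 0.67. With the macrophage score, which separated the ages by itself, Gpihbp1 was -0.044, Meox2 -1.20, Adh1 -0.25, Aqp2 -1, Fabp1 3.87 and Fabp3 2.05. The cause was not tested.

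Libraries of the same replicate number were weakly alike (correlations of their deviations 0.08, 0.12 and 0.10), and each young library matched its own number best. With 3 libraries per group these values cannot decide whether the numbers mark pairs. A replicate block called 0 genes, as without it, gave Rbp7 2.39, and left 2 members at an unadjusted p under 0.05 (Rbp7 and Gpihbp1).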
